A study of Mus musculus with 10 samples.

Results

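The secreted Wnt antagonists of mouse embryonic fibroblasts (MEFs) were taken as 9 named genes, Frzb, Sfrp1, Sfrp2, Sfrp4, Sfrp5, Dkk1, Dkk2, Dkk3 and Wif1, of 53801 genes in the table. The rule is a list of names and sets no threshold on a measured value, but the names were chosen with earlier results of these data known. All 9 genes had reads in at least 1 library, and 8 passed the filter for testing, a mean normalized count of at least 10 over all libraries. Sfrp5 did not.

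The RNA came from 10 MEF lines of C57BL/6 embryos at embryonic day 13.5, in families named for the gene deleted. The MIDEAS family held 3 MIDEAS+/+ and 3 MIDEAS-/- lines, and the DNTTIP1 family held 2 DNTTIP1+/+ and 2 DNTTIP1-/- lines. The knockout alleles were constitutive small deletions in exon 2, of 10 bp in Mideas (listed in the files as Elmsan1) and 11 bp in Dnttip1, so every cell of the embryo carried them. No group received a treatment. MEFs were grown from embryo trunks and are a mixed culture, so that a higher level in bulk RNA can come from more expressing cells or from more RNA per cell, which cannot be told apart. MIDEAS and DNTTIP1 are subunits of MiDAC, a histone deacetylase complex built around HDAC1 or HDAC2.

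Wnt ligands bind Frizzled receptors and the co-receptors LRP5 and LRP6 and thereby stabilise beta-catenin, which acts with TCF/LEF factors on target genes. Secreted frizzled-related proteins (Frzb and the Sfrp genes) carry a cysteine-rich domain like that of Frizzled and bind Wnts outside the cell, as does WIF1 through a domain of its own. DKK1 and DKK2 bind LRP5 and LRP6 instead, while DKK3 is a divergent relative. Several of these genes are known for roles in limb, cartilage and bone development, and Dkk1 is itself a well-known target of beta-catenin.

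Promoter sequences (RefSeq, GRCm38.p6, 250 bases before to 50 after the RefSeq start of the gene) were matched for 6 of the 9 genes. For Frzb, Dkk1 and Wif1 the GENCODE spans given below begin within these windows, upstream of that start. They are shown for 3 genes whose knockout levels were above their wild types and for Dkk2, whose levels overlapped. Capitals mark CTTTGA, a form of the core that TCF/LEF factors recognise, and TATAAA, the TATA box core, each on either strand (TCAAAG and TTTATA). The motifs do not overlap each other.
Frzb, chr2:80447347-80447646, minus strand: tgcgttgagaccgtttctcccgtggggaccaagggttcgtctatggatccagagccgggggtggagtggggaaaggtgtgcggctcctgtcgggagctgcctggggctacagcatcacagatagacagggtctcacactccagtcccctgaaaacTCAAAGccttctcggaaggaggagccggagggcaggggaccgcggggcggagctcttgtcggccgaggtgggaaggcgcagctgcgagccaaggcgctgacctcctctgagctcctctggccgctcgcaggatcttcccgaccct
Sfrp2, chr3:83766071-83766370, plus strand: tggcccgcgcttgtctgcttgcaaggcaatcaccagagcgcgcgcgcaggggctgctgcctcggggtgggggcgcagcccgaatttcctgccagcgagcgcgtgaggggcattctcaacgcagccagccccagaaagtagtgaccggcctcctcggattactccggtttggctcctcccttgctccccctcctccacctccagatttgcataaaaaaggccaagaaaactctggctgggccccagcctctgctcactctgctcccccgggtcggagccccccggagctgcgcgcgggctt
Dkk1, chr19:30549447-30549746, minus strand: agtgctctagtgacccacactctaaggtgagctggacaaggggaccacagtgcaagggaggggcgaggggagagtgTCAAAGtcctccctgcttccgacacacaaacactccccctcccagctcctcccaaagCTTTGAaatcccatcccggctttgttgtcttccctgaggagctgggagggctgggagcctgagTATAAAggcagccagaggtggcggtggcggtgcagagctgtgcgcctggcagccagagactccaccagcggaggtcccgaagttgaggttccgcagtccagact
Dkk2, chr3:132085042-132085341, plus strand: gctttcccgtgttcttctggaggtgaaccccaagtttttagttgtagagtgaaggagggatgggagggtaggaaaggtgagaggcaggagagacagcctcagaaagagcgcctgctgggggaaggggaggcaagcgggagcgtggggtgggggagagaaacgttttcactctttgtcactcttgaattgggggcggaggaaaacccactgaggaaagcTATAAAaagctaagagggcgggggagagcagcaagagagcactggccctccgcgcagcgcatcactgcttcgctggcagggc

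The CTTTGA core was found once in the Frzb window, at position -95 from the RefSeq start, and at 2 positions in the Dkk1 window, -117 and -174. The Frzb match and the Dkk1 match at -117 lie inside the GENCODE gene spans. The other 4 windows (Sfrp2, Sfrp5, Dkk2 and Wif1) held no CTTTGA match. Of 27025 mouse promoters of the same length, 16.2% held CTTTGA. The variant CTTTGT, not capitalised in the sequences, lay at -98 in Dkk1 and at -80 in Dkk2, and 18.7% of all promoters held it. A TATAAA match lay at -54 in Dkk1, at -32 in Dkk2 and at -232 in Wif1, against 14.2% of all promoters with one. CpG dinucleotides numbered 25 in Wif1, 22 in Sfrp2, 20 in Frzb, 15 in Sfrp5, 11 in Dkk2 and 9 in Dkk1, all above the median of 7 over all promoters. A match is a description of these letters and not a measured binding site.

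Library totals were 12339970 to 19761295 reads (median 13822918). All 10 fibroblast markers checked (among them Col1a1, Pdgfra and Thy1) passed the filter. Dnttip1 was 185 ± 17.0 normalized counts in DNTTIP1-/- (SD, n = 2) and 439 ± 5.73 in DNTTIP1+/+ (SD, n = 2). Elmsan1 was 1452 ± 365 in MIDEAS-/- and 1393 ± 161 in MIDEAS+/+ (SD, n = 3 each), so its RNA level does not check that label. Reads of 4 Y-linked genes summed to 3502 or more in 3 libraries that had no Xist read (MIDEAS+/+ replicate 1, DNTTIP1+/+ replicate 1 and DNTTIP1-/- replicate 1), and Xist was 3299 or more in the other 7. MIDEAS-/- replicate 1 stood apart from its group, with a chi-square per gene of 61.7 and 51.9 against the other knockout lines and 19.3 between those. Where leaving out 1 of these libraries changed the call of a member, this is said beside the member.

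In wild-type MEFs the antagonists covered a wide range of levels. Per kb of exon, Dkk3 led in MIDEAS+/+ with a mean of 869 normalized counts, followed by Sfrp1 with 455, Dkk2 with 389, Sfrp2 with 159.9, Frzb with 57.5, Sfrp4 with 16.4, Wif1 with 4.54, Dkk1 with 1.10 and Sfrp5 with 0.686 (means of 3 lines). Neighbours in this order did not overlap over the 3 lines, except Sfrp1 with Dkk2, Wif1 with Dkk1 and Dkk1 with Sfrp5. In DNTTIP1+/+ Dkk3 was again first, with 949 per kb, and Sfrp2 (497), Dkk2 (491) and Sfrp1 (458) formed a middle group whose neighbours overlapped. Frzb followed with 63.4 per kb, Sfrp4 with 17.4, Wif1 with 12.9 and Dkk1 with 2.61, and the ranges of Sfrp4 and Wif1 overlapped, as did those of Dkk1 and Sfrp5, which was at 0. In both knockouts Dkk3 kept the first place (1130.2 per kb in MIDEAS-/- and 1163 in DNTTIP1-/-), but in each case its range overlapped that of the next gene, Sfrp1 with 920.0 in MIDEAS-/- and Sfrp2 with 999.6 in DNTTIP1-/-. Within single libraries Dkk3 was above that gene in 3 of 3 MIDEAS-/- and 2 of 2 DNTTIP1-/- lines.

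The first question was what loss of MIDEAS did to these genes. Frzb, Sfrp1, Sfrp2 and Sfrp4 rose in MIDEAS-/- MEFs, by 1.99-fold to 6.0-fold, while no antagonist fell. With a limma fit over all 16227 tested genes and a Benjamini-Hochberg adjusted p under 0.1, 4 of the 8 tested members were called higher and 0 lower, where 5.65% of all tested genes were called and 3.36% were called higher. All 4 were secreted frizzled-related protein genes. Without MIDEAS+/+ replicate 1, the MIDEAS line with Y-linked reads, 4 members were called (582 of all 16227 tested genes). Without MIDEAS-/- replicate 1, 3 were (668 of all tested genes). At an unadjusted p under 0.05, 6 of 8 were higher, against 8.82% of all tested genes. EdgeR on the recovered reads called 4 members (5.28% of all tested genes) and DESeq2 called 5 (10.3%), adding Dkk1 (DESeq2 adjusted p = 0.0597). The median log2 fold change of the 8 was 1.40, against -0.02 over all tested genes, and 8 of 8 had a positive value, against 46.4% of all tested genes.

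The second question was whether loss of DNTTIP1 did the same. Frzb rose 3.17-fold in DNTTIP1-/- and was the only member called, 1 of 8 tested, where 0.0308% of all tested genes (5 genes) were called and 0.0247% were called higher. At an unadjusted p under 0.05, 4 of 8 were higher (Frzb, Sfrp1, Sfrp4 and Dkk1), against 4.38% of all tested genes. EdgeR called 1 member (0.0308% of all tested genes), as did DESeq2 (1.27%), in each case Frzb. The median log2 fold change was 1.08, against 0.00 over all tested genes, and 7 of 8 were positive, against 50.1%.

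Taking the mean of the 2 knockout effects, 5 of 8 members were called higher and 0 lower, where 6.23% of all tested genes were called and 4.04% were called higher. The called members were Frzb, Sfrp1, Sfrp2, Sfrp4 and Dkk1, the same 5 with edgeR (6.11% of all tested genes) and DESeq2 (10.7%). At an unadjusted p under 0.05, 7 of 8 were higher, against 9.76% of all tested genes, and Dkk2 was the exception. The same 5 genes had every knockout line above every wild-type line of its own family in both families, which held for 5.09% of all tested genes. Within single families this held for the same 5 in MIDEAS (11.5% of all tested genes) and for these and Wif1 in DNTTIP1 (20.1%).

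Levels of cell type markers are given beside these results, with their sums as a description and no test. The summed normalized counts of 11 chondrocyte and osteoblast markers, none of them at 0 in all libraries, were 4147 to 5796 in MIDEAS+/+ and 6210.0 to 7419 in MIDEAS-/-, and 6175 to 7643 in DNTTIP1+/+ and 9600.1 to 10326 in DNTTIP1-/-. Of the 10 tested, 3 were called higher in MIDEAS-/- (Sox9, Col9a1 and Alpl), against 3.36% of all tested genes. Col2a1, a large part of this sum with 2208 to 3426 in MIDEAS+/+ and 3574 to 4621 in MIDEAS-/-, was not called there. Acan went the other way, with a lower mean in both knockouts, and was not called. It was 26.6 to 526 in MIDEAS+/+ and 29.9 to 261 in MIDEAS-/-. The sum of 6 tendon and joint markers was 2646 to 4289 in MIDEAS+/+ and 4395 to 4977 in MIDEAS-/-, with 1 of 6 called higher (Mkx). It overlapped in the DNTTIP1 family, with 3560.0 to 5251 in DNTTIP1+/+ and 4614 to 5362 in DNTTIP1-/-. Scx had a lower mean in MIDEAS-/- (413 to 589, against 439 to 807 in MIDEAS+/+) and was not called. The sum of 6 smooth muscle and myofibroblast markers was 9437 to 13712 in MIDEAS+/+ and 5629 to 8131 in MIDEAS-/-, with 2 of 6 called lower (Myh11 and Des). For the DNTTIP1 lines it was 9569.6 to 10737 in DNTTIP1+/+ and 6915 to 8905 in DNTTIP1-/-. Of all 16227 tested genes 372 were called lower in MIDEAS-/-. Among markers of other cell types in MIDEAS-/-, 1 of 4 tested adipocyte genes (Lpl, list median 0.51) and 1 of 3 endothelial genes (Tek, list median -0.77) were called higher, 1 of 3 epithelial genes (Krt18) was called lower, and 0 of 5 macrophage, 0 of 3 neuronal and 0 of 5 striated muscle genes were called. The other endothelial genes tested, Kdr and Emcn, and the adipocyte gene Fabp4 had lower means in MIDEAS-/- and were not called. The sum of 6 adipocyte markers was 802 to 876 in MIDEAS+/+ and 1663 to 3043 in MIDEAS-/-. In the DNTTIP1 family this sum was 774 to 1780 in wild types and 1848 to 2620 in knockouts. The sum of 5 neuronal markers was 1224 to 1713 in MIDEAS+/+ and 1881 to 2032 in MIDEAS-/-. It was 1574 to 1810 in DNTTIP1+/+ and 1860 to 1942 in DNTTIP1-/-. Sums of the fibroblast, endothelial and macrophage lists overlapped in both families. Of the 10 fibroblast markers, 2 were called higher in MIDEAS-/- (Dcn and Lum) and 0 lower, and Dcn was called higher for the mean effect. The list as a whole did not rise in MIDEAS-/-, with 4 of 10 positive and a list median of -0.06. Lum was 96.1 to 490.3 normalized counts in MIDEAS+/+ and 1123 to 1781 in MIDEAS-/-, and Dcn was 581 to 1008 and 1511 to 1964. In DNTTIP1-/- 0 genes of any marker list were called, where 0.0308% of all tested genes were. For the mean effect Sox9, Col2a1, Gdf5, Mkx, Lpl, Cebpa, Tek and Dcn were called higher and Myh11 and Des lower. Of all 16227 tested genes 4.04% were called higher for this effect and 355 were called lower. The part of these cell types in the antagonist levels was not tested.

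**Figure D1:**
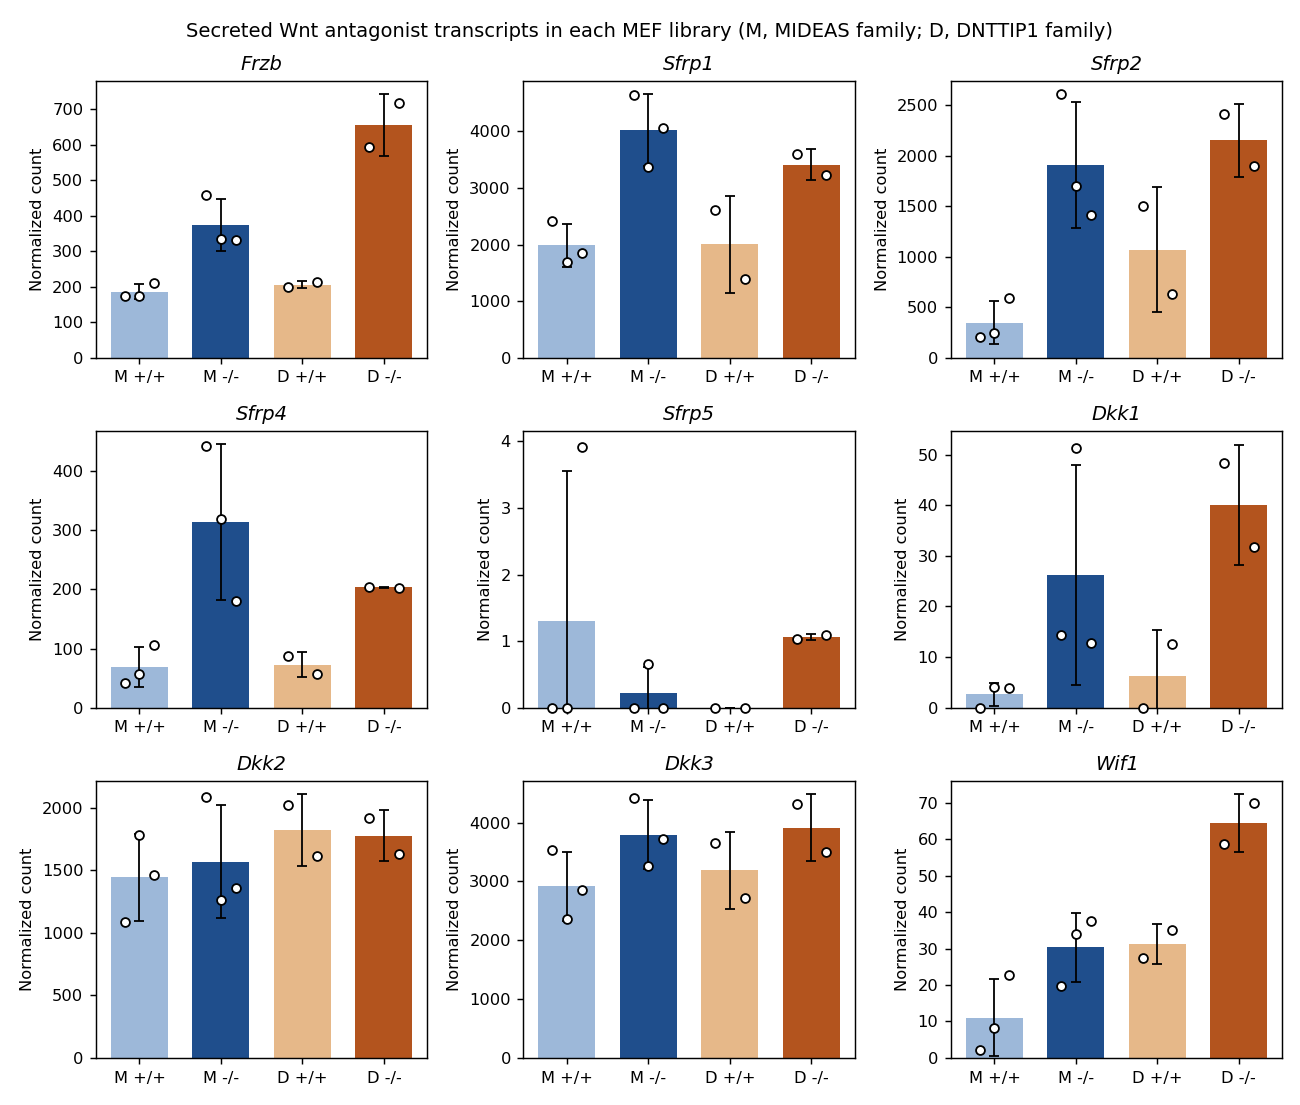
Normalized counts (y axis, linear, one scale per gene) of the 9 antagonists in the 4 groups of MEF lines, where bars are group means, error bars 1 SD and circles single libraries (n = 3 for each MIDEAS group and 2 for each DNTTIP1 group). The knockout circles of Frzb, Sfrp1, Sfrp2, Sfrp4 and Dkk1 all lie above the wild-type circles of the same family, and those of Dkk2 overlap.

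Frzb, at chr2:80411970-80447625 (mm10, minus strand), encodes a frizzled-related protein first described in cartilage. Its normalized counts were 174, 175 and 209.7 in the MIDEAS+/+ lines and 459.5, 334 and 331 in MIDEAS-/-. They were 198 and 213 in DNTTIP1+/+ and 595 and 717 in DNTTIP1-/-. All 5 wild-type lines lay close together and below all 5 knockout lines, and the DNTTIP1-/- lines were above every MIDEAS-/- line. The log2 fold change was 1.00 ± 0.18 in the MIDEAS family (SE, limma adjusted p = 0.0233) and 1.67 ± 0.22 in the DNTTIP1 family (SE, limma adjusted p = 0.0594). The mean effect was 1.33 ± 0.14 (SE, limma adjusted p = 0.00293), which put Frzb at rank 15 by p among all tested genes. The MIDEAS effect minus the DNTTIP1 effect was -0.67 (95% interval -1.3 to -0.04, unadjusted p = 0.0392), which did not pass after adjustment (limma adjusted p = 0.990).

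The Frzb calls differed in how far they rested on single lines. In the MIDEAS family and for the mean effect Frzb stayed called without any 1 of the 10 libraries. In the DNTTIP1 family the call was kept only without MIDEAS-/- replicate 1 (limma adjusted p = 0.0671). Without each of the other 9 libraries in turn it was lost, with a limma adjusted p up to 0.521, while the log2 fold change stayed between 1.53 and 1.80. Fitted on the 4 DNTTIP1 libraries alone it was also lost (limma adjusted p = 0.496). Within replicate numbers, which in this family go with Y-linked or Xist reads, the DNTTIP1-/- to DNTTIP1+/+ ratio was 3.0 for the pair with Y-linked reads and 3.38 for the pair with Xist.

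Sfrp1, at chr8:23411502-23449632 (plus strand), was the most abundant frizzled-related transcript per kb in MIDEAS+/+. Its normalized counts were 2417, 1691 and 1853 in MIDEAS+/+ and 4641, 3372 and 4053 in MIDEAS-/-. They were 2609 and 1394 in DNTTIP1+/+ and 3602 and 3226 in DNTTIP1-/-. Knockout and wild-type lines did not overlap within either family, and the DNTTIP1+/+ lines were far apart from each other. Its log2 fold change was 1.02 ± 0.23 in the MIDEAS family (SE, limma adjusted p = 0.0457) and 0.84 ± 0.28 in the DNTTIP1 family (SE, limma adjusted p = 0.561). The MIDEAS call needed all of MIDEAS+/+ replicates 2 and 3 and MIDEAS-/- replicates 1 and 3, and was lost when any of these was left out, with a limma adjusted p up to 0.188. The mean effect was 0.93 ± 0.18 (SE, limma adjusted p = 0.0261) and stayed called without any 1 library.

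Sfrp2, at chr3:83766321-83774316 (plus strand), encodes a frizzled-related protein expressed by many mesenchymal cells, and its exons overlap those of Gm26771, which runs in the opposite direction. The sources do not say whether counting used strand, so that Sfrp2 reads may include some of Gm26771. The normalized counts were 202, 241 and 589.9 in MIDEAS+/+ and 2608, 1695 and 1413 in MIDEAS-/-. They were 1506 and 635 in DNTTIP1+/+ and 2409 and 1895 in DNTTIP1-/-. The knockouts of both families reached like levels, with means of 1906 ± 625 in MIDEAS-/- (SD, n = 3) and 2152 ± 363 in DNTTIP1-/- (SD, n = 2), whereas the wild types lay apart, with 344 ± 214 in MIDEAS+/+ (SD, n = 3) and 1070.2 ± 616 in DNTTIP1+/+ (SD, n = 2).

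The log2 fold change of Sfrp2 was 2.58 ± 0.43 in the MIDEAS family (SE, limma adjusted p = 0.0181), the largest among the called members, and 1.13 ± 0.52 in the DNTTIP1 family (SE, limma adjusted p = 0.778). The difference between the knockout effects was 1.46 (95% interval -0.05 to 2.96, limma adjusted p = 0.990). The DNTTIP1+/+ lines were both above the MIDEAS+/+ lines, with a log2 difference of 1.67 (95% interval 0.61 to 2.74, limma adjusted p = 0.40). For Sfrp2 the mean effect of 1.86 ± 0.34 (SE, limma adjusted p = 0.0203) and the MIDEAS call held without any 1 library.

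Sfrp4, at chr13:19623104-19632994 (plus strand), encodes a frizzled-related protein with known roles in bone. It was a low transcript in wild types, with normalized counts of 42.3, 57.2 and 106 in MIDEAS+/+ and 87.5 and 57.5 in DNTTIP1+/+. The knockout values were 442, 318 and 180.0 in MIDEAS-/- and 204 and 202 in DNTTIP1-/-. Every knockout line was above all 5 wild-type lines, and the MIDEAS-/- lines were spread widely while the DNTTIP1-/- lines were nearly equal. The log2 fold change was 2.19 ± 0.40 in the MIDEAS family (SE, limma adjusted p = 0.0241), 1.5 ± 0.49 in the DNTTIP1 family (SE, limma adjusted p = 0.557) and 1.85 ± 0.32 for the mean effect (SE, limma adjusted p = 0.0157). The first and the last of these calls held without any 1 library.

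Sfrp5, at chr19:42197971-42202252 (minus strand), was barely detected. It had no read in 6 of 10 libraries and at most 5 reads in any. A count of 0 allows up to 3 reads, or 2.92 to 3.34 normalized counts in the libraries at 0, by counting error only. No fold change is given for it.

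Dkk1, at chr19:30545863-30549665 (minus strand), encodes an inhibitor that binds LRP5 and LRP6. Its reads were few, with 0, 4 and 5 in MIDEAS+/+ and 14, 77 and 13 in MIDEAS-/-. There were 0 and 13 reads in DNTTIP1+/+ and 47 and 29 in DNTTIP1-/-. As normalized counts these were 0, 4.09 and 3.91, then 14.5, 51.2 and 12.9, then 0 and 12.7, and 48.4 and 31.7. Knockout and wild-type lines did not overlap within either family, but MIDEAS-/- replicate 2 was far above its group and DNTTIP1+/+ replicate 2 was at the level of the lower MIDEAS-/- lines. The log2 fold changes were 2.94 ± 1.03 (SE, limma adjusted p = 0.177) in the MIDEAS family and 3.44 ± 1.26 in the DNTTIP1 family (SE, limma adjusted p = 0.636). Without DNTTIP1+/+ replicate 1 or 2, which enter the MIDEAS comparison only through the shared spread, Dkk1 was called in the MIDEAS family (limma adjusted p = 0.0830 and 0.0909).

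The mean Dkk1 effect, 3.19 ± 0.82 (SE, limma adjusted p = 0.0655), was called. It was lost without MIDEAS+/+ replicate 1, MIDEAS-/- replicate 2 or 3, DNTTIP1+/+ replicate 1 or either DNTTIP1-/- line, with a limma adjusted p up to 0.209. With a wild-type library at 0 in each family, the size of these fold changes depends on the value of 1 added before taking logs. The 95% interval of the mean effect ran from 1.37 to 5.01.

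Dkk2, at chr3:132085292-132180304 (plus strand), shares its LRP5 and LRP6 binding with Dkk1 but showed no detectable change. Its normalized counts were 1087, 1780.2 and 1459 in MIDEAS+/+ and 2087, 1260.0 and 1356 in MIDEAS-/-. They were 2020.4 and 1615 in DNTTIP1+/+ and 1919 and 1629 in DNTTIP1-/-. The groups overlapped in both families. On the log2 scale the change was 0.11 (95% interval -0.39 to 0.61) in the MIDEAS family, -0.03 (-0.64 to 0.58) in the DNTTIP1 family and 0.04 (-0.35 to 0.43) for the mean effect.

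Dkk3, at chr7:112116017-112159057 (minus strand), the most abundant member per kb in every group, had normalized counts of 3531, 2367 and 2858 in MIDEAS+/+ and 4418, 3255 and 3716 in MIDEAS-/-. They were 3651 and 2726 in DNTTIP1+/+ and 4310.1 and 3505 in DNTTIP1-/-. Group means were higher in the knockouts but lines overlapped in both families. Its log2 fold change was 0.39 (95% interval -0.02 to 0.80, limma adjusted p = 0.331) in the MIDEAS family and 0.30 (-0.20 to 0.80, limma adjusted p = 0.890) in the DNTTIP1 family. The mean effect was 0.34 (0.02 to 0.67, limma adjusted p = 0.269).

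Wif1, at chr10:121033960-121100650 (plus strand), the Wnt inhibitory factor gene, was low in all lines. Its normalized counts were 2.23, 8.18 and 22.7 in MIDEAS+/+ and 19.6, 33.9 and 37.6 in MIDEAS-/-. They were 27.4 and 35.1 in DNTTIP1+/+ and 58.7 and 70.0 in DNTTIP1-/-. The DNTTIP1 groups did not overlap, while the lowest MIDEAS-/- line was below the highest MIDEAS+/+ line, and the DNTTIP1+/+ lines stood at the level of MIDEAS-/-. The log2 fold change was 1.77 ± 0.64 in the MIDEAS family (SE, limma adjusted p = 0.191), 1.02 ± 0.79 in the DNTTIP1 family (SE, limma adjusted p = 0.896) and 1.40 ± 0.51 for the mean effect (SE, limma adjusted p = 0.191). Without MIDEAS+/+ replicate 3, Wif1 was called in the MIDEAS family (limma adjusted p = 0.0575) and for the mean effect (limma adjusted p = 0.0593). Between the wild types the log2 difference was 1.85 (95% interval 0.25 to 3.45, limma adjusted p = 0.425).

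**Figure D2:**
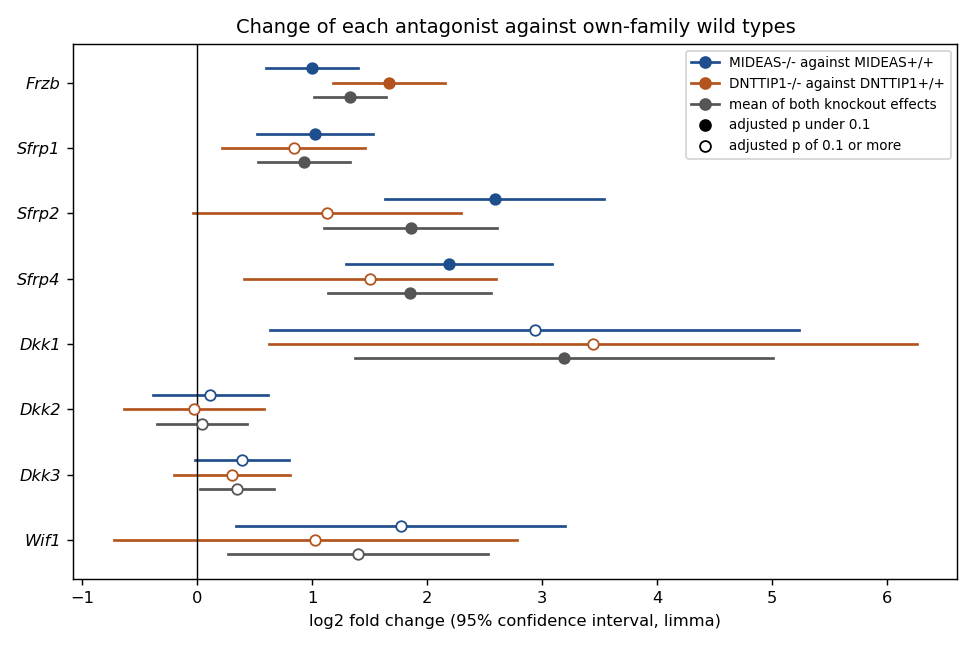
Log2 fold change (x axis) with its 95% confidence interval from the limma fit for the 8 tested antagonists (y axis), in the MIDEAS family, in the DNTTIP1 family and as the mean of both effects, where filled circles have an adjusted p under 0.1. Filled circles are Frzb in all 3 comparisons, Sfrp1, Sfrp2 and Sfrp4 in the MIDEAS family and the mean, and Dkk1 in the mean alone.

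The difference between the 2 knockout effects was tested for each member, since a call in 1 family and not in the other shows no difference. No member and no gene of all tested (0.0%) was called for this difference with limma. At an unadjusted p under 0.05, 1 member (Frzb) and 453 genes of all tested (2.79%) differed. EdgeR called 0 members and 0 genes (0.0%), and DESeq2 called 0 members and 12 genes (0.074%). The intervals were wide, from -4.15 to 3.13 on the log2 scale for Dkk1 and from -0.64 to 0.93 for Dkk2.

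The wild-type lines of the 2 families were compared because they set the level from which each knockout was read. No member and no gene (0.0%) was called with limma, and 2 members (Sfrp2 and Wif1, both higher in DNTTIP1+/+) and 10.7% of all tested genes had an unadjusted p under 0.05. EdgeR called 0 members and 0 genes, and DESeq2 called 1 member, Sfrp2 (DESeq2 adjusted p = 0.0550), and 267 genes (1.65%). Sfrp2 and Wif1 were the members whose DNTTIP1+/+ lines were all above the MIDEAS+/+ lines, which held for 16.0% of all tested genes. Both wild-type groups held a library with Y-linked reads and at least 1 with Xist. Among those with Y-linked reads, Sfrp2 was 202 in MIDEAS+/+ and 1506 in DNTTIP1+/+, and Wif1 was 2.23 and 27.4. Among those with Xist, Sfrp2 was 241 and 589.9 in MIDEAS+/+ and 635 in DNTTIP1+/+, and Wif1 was 8.18 and 22.7 against 35.1. The order was the same within each kind, but each kind held only 1 DNTTIP1+/+ line. The Sfrp2 values 589.9 and 635 lay close together.

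Summed per kb of exon, the 9 antagonist transcripts came to 1757 to 2056 normalized counts in the MIDEAS+/+ lines and 3083 to 4414 in MIDEAS-/-. In the DNTTIP1 family the sums were 1960.1 and 3022 in DNTTIP1+/+ and 3414 and 4021 in DNTTIP1-/-. Knockout lines were above the wild types of their family in both cases. Frizzled-related genes made up 32.3% to 38.6% of the sum in MIDEAS+/+ and 53.7% to 57.1% in MIDEAS-/-. They made up 35.4% and 45.6% in DNTTIP1+/+ and 54.1% and 55.3% in DNTTIP1-/-. Dkk genes took 60.9% to 67.6% in MIDEAS+/+ and 42.7% to 45.9% in MIDEAS-/-, with Dkk2 and Dkk3 supplying nearly all of it. The Dkk sum itself had a mean of 1259 per kb in MIDEAS+/+ and 1564 in MIDEAS-/-, and 1442 in DNTTIP1+/+ and 1659 in DNTTIP1-/-. The frizzled-related sum had means of 689 and 1996 per kb in the MIDEAS family and 1036 and 2032 in the DNTTIP1 family. The make-up of the antagonist pool thus went from one led by Dkk genes in the wild types to one in which frizzled-related transcripts were the larger share in all 5 knockout lines. These sums are a description and were not tested.

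**Figure D3:**
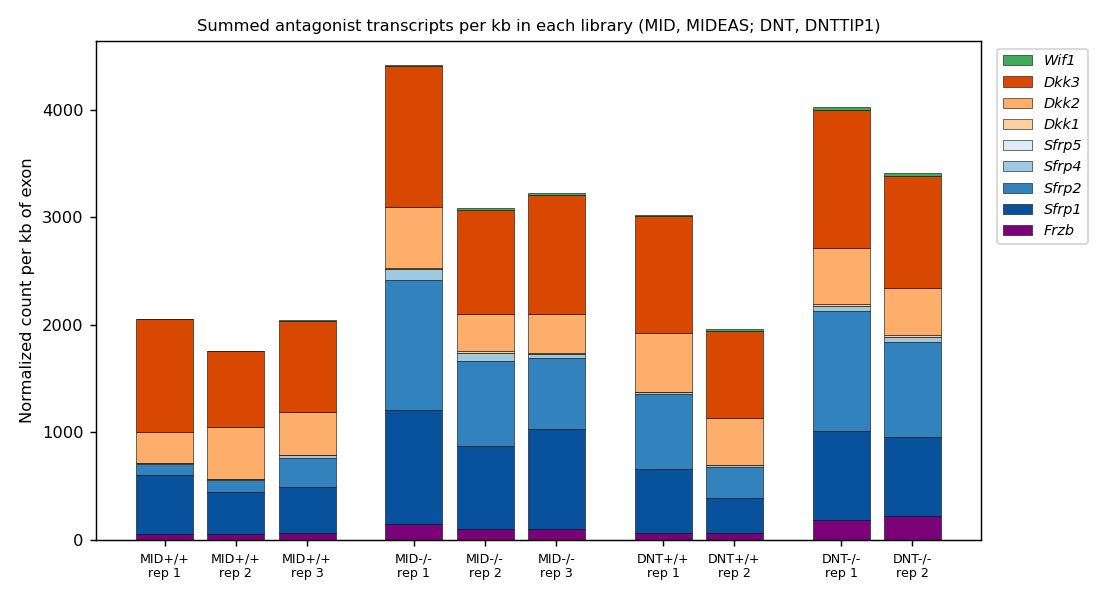
Stacked bars of the normalized count per kb of exon (y axis) of the 9 antagonists in each of the 10 libraries (x axis), with blue and purple for the frizzled-related genes and orange for the Dkk genes. The 5 knockout bars reach 3083 to 4414 and the wild-type bars 1757 to 3022, and the blue and purple parts together are 53.7% or more of each knockout bar.

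The other parts of the Wnt pathway were read from 5 lists of 69 genes, of which 52 were tested. In MIDEAS-/- 8 of these 52 were called higher and 2 lower, where 545 (3.36%) and 372 of all 16227 tested genes were, and the counts for each list below are read against these shares. In DNTTIP1-/- 0 of 52 were called, where 0.0308% of all tested genes were. At an unadjusted p under 0.05, 9 of the 52 were higher and 1 lower there, where 710 (4.38%) and 339 of all 16227 tested genes were. For the mean effect 11 were called higher and 1 lower, where 4.04% of all tested genes were called higher and 355 genes lower.

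Other extracellular inhibitors, a list that also holds the receptor gene Lrp4, included 2 of 8 tested genes called higher in MIDEAS-/- and 0 lower. The list median was 1.22. Lrp4, a receptor that binds the inhibitor sclerostin, was 321 ± 60.2 normalized counts in MIDEAS+/+ and 817 ± 156 in MIDEAS-/- (SD, n = 3 each), with a log2 fold change of 1.35 (limma adjusted p = 0.00963). In the DNTTIP1 family Lrp4 had a log2 fold change of 1.3 (limma adjusted p = 0.158). Sostdc1, a secreted BMP and Wnt antagonist, was at 2.61 ± 4.52 in MIDEAS+/+ and 56.9 ± 30.2 in MIDEAS-/- (SD, n = 3 each), with a log2 fold change of 4.62 (limma adjusted p = 0.0362). Its DNTTIP1+/+ lines were far apart, at 8.44 and 60.4, and both below the DNTTIP1-/- lines. Notum, a secreted enzyme that strips the lipid from Wnt proteins, had a log2 fold change of 2.33 that was not called (limma adjusted p = 0.168).

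Of 11 tested Wnt ligands, 2 were called higher and 1 lower in MIDEAS-/-, where 545 and 372 of all 16227 tested genes were. Wnt11, mostly known for beta-catenin-independent signalling, changed by 1.32 on the log2 scale (limma adjusted p = 0.0777) and Wnt2 by 1.83 (limma adjusted p = 0.0879). Wnt10a fell by 3.0 (limma adjusted p = 0.0859), from 65.8 ± 61.1 normalized counts in MIDEAS+/+ to 7.34 ± 5.81 in MIDEAS-/- (SD, n = 3 each). Its DNTTIP1 log2 fold change was -0.71 (limma adjusted p = 0.953).

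Of 16 tested receptors and co-receptors, 3 were called higher and 0 lower in MIDEAS-/-. Fzd4, a Frizzled receptor, was 637 ± 234 in MIDEAS+/+ and 2437 ± 383 in MIDEAS-/- (SD, n = 3 each), with a log2 fold change of 2.00 (limma adjusted p = 0.00874). Ror1, a receptor for Wnt5a, changed by 1.65 (limma adjusted p = 0.00680) and Fzd1 by 0.92 (limma adjusted p = 0.0866). In DNTTIP1-/- the log2 fold changes were 1.63 for Fzd4, 1.41 for Ror1 and 0.60 for Fzd1, none of them called.

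Of the 8 tested genes of the R-spondin axis, which controls receptor levels at the cell surface, 0 were called in MIDEAS-/-. Lgr5 had a log2 fold change of 2.90 (limma adjusted p = 0.172), Lgr6 of -1.52 (limma adjusted p = 0.170) and Lgr4 of 0.54 (limma adjusted p = 0.167), and for the mean effect Lgr4 was called (log2 fold change 0.64, limma adjusted p = 0.0437).

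Of the 9 tested genes that serve as readouts of beta-catenin signalling, 1 was called higher and 1 lower in MIDEAS-/-, and the list median was -0.54. Nkd1, a feedback inhibitor inside the cell, rose from 213 ± 32.1 to 840.4 ± 314 normalized counts (SD, n = 3 each), a log2 fold change of 1.92 (limma adjusted p = 0.0161). Tcf7, which encodes a TCF factor, fell from 70.2 ± 7.10 to 30.9 ± 2.35 (SD, n = 3 each), a log2 fold change of -1.15 (limma adjusted p = 0.0671). Axin2, the most used readout, was 70.0 ± 40.6 in MIDEAS+/+ and 181 ± 56.6 in MIDEAS-/- (SD, n = 3 each) and was not called (log2 fold change 1.54, limma adjusted p = 0.148). The readouts therefore did not move in 1 direction.

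**Figure D4:**
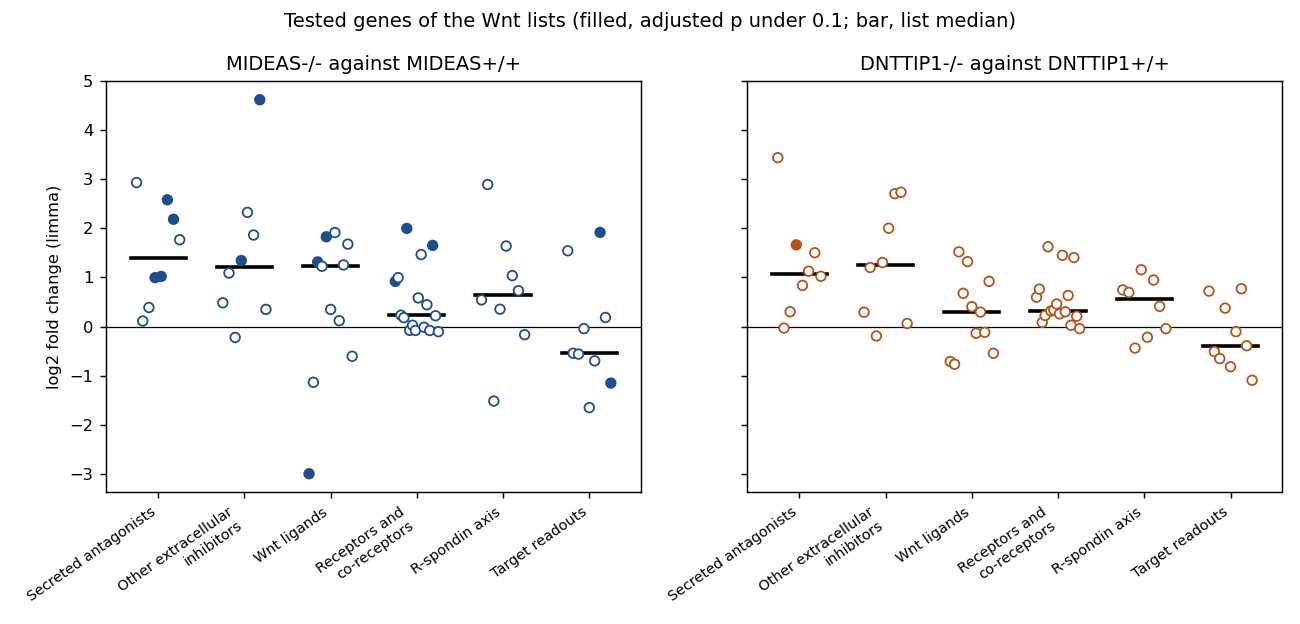
Log2 fold changes (y axis) of the tested genes of the secreted antagonists and of 5 Wnt pathway lists (x axis) in the MIDEAS family (left) and the DNTTIP1 family (right), where filled circles have an adjusted p under 0.1 and bars are list medians. In the MIDEAS panel 4 of 8 antagonists are filled, and in the DNTTIP1 panel Frzb is the only filled circle.

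The genes whose log2 profiles over the 10 libraries were most like those of the 4 members called within a family were found as the smallest root-mean-square difference after centring. For Frzb they were Faah (0.26), Htra4 (0.29) and Hivep3 (0.30), against a median of 0.77 over all tested genes. For Sfrp1 they were Helb (0.16), Slc7a4 (0.17) and Add3 (0.17), against 0.62. For Sfrp2 they were Cbln3 (0.31), Wnt2 (0.42) and Grik1 (0.43), against 1.3, and for Sfrp4 they included Gpr27 (0.34) and Nrk (0.37), against 1.12. No other antagonist was among the nearest genes of these 4 members, and Wnt2 was the only one of them in the Wnt lists.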

How the data were processed

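RNA-seq of 10 MEF libraries in 4 groups was analysed (MIDEAS+/+ n = 3, MIDEAS-/- n = 3, DNTTIP1+/+ n = 2, DNTTIP1-/- n = 2). The lines are separate cultures, and whether embryos shared a litter is not stated. The submitters' processing notes name STAR 2.5.2b with mm10, Trim Galore 0.4.5 with cutadapt 1.11 for adaptors, Picard and SAMtools 1.3.2, and DESeq2. Duplicates were removed, which lowers abundant transcripts most. How reads were counted (program, annotation, strand) is not given in the sources used here.

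Each deposited signal value is a normalized count, reads divided by the authors' size factor of each library, set over all 10 libraries. All values were whole multiples of 1 read (tolerance 0.01). Genes with exactly 2 reads (2036 to 2431 per library) outnumbered genes with 1 (1064 to 1874), so a recovered read may not be an independent fragment, and limits from counts cover counting error only. The authors' comparison columns, which hold log2 fold changes, p-values and scores of genes they called, were not used.

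Names came from a gene ID table (53620 of 53801 genes) and positions and exon lengths from GENCODE M21. Log2(value + 1) of 16227 genes with a mean of at least 10 was fitted with limma 3.58.1 in R 4.3.3 (trend, robust; two-sided) in 1 fit of 4 groups that share 1 estimate of the spread. Contrasts were each knockout against its own wild types, their mean, their difference, and the wild types against each other. Benjamini-Hochberg adjusted p under 0.1 is called. Fold changes of low genes depend on the added 1 and are not lower bounds. For Dkk1 in the DNTTIP1 family limma gave 3.44, edgeR 2.61 and DESeq2 2.65 on the log2 scale. In the MIDEAS family these were 2.94, 3.22 and 3.29. For Wif1 they were 1.77, 1.42 and 1.43 in the MIDEAS family and 1.02, 1.03 and 1.04 in the DNTTIP1 family. The script was tested on simulated data.

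Alternatives were a value of 0.5 or 5 added, no filter, a mean of at least 50, TMM scaling, edgeR 4.0.16 and DESeq2 1.42.0 on recovered reads, a fit per family, a replicate block, and each library left out. Replicate numbers were not taken as pairs in the main fit, since same-numbered deviations correlated at 0.21, -0.11 and -0.05 in the MIDEAS family. In the DNTTIP1 family, which has only 2 numbers, they correlated at 0.66, and its numbers go with Y-linked or Xist reads. The replicate block takes the numbers into the fit.

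The 9 members and all lists were chosen with earlier results of these data known. Named besides the members are up to 3 genes with the smallest MIDEAS p in each Wnt list, the 3 genes nearest to each member called in a family, and the targeted genes. For Sfrp4, 1 of the nearest genes is not reported here. Markers named with the lists were chosen after their values were seen.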

Additional observations from a re-analysis of the deposited data

How the results depend on the processing

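With the replicate block 7 of 8 members were called in the MIDEAS family (12.5% of all tested genes) against 4 without it, and in a fit of the DNTTIP1 family alone 0 were called against 1. DESeq2 called 1 member between the wild types against 0 in limma. Leaving out each library gave 3 to 5 called members in the MIDEAS family, 0 to 1 in the DNTTIP1 family and 4 to 6 for the mean effect. Of all 16227 tested genes 264 to 1014, 0 to 4 and 371 to 1444 were called in these fits. The members added by the block were Dkk1, Dkk3 and Wif1. For the mean effect the block called 7 against 5, adding Dkk3 (limma adjusted p = 0.0524) and Wif1 (limma adjusted p = 0.0547). It called 1923 of all 16227 tested genes for this effect, against 1011 without it. The cause was not tested.

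Directions turned only in values that were not called. Leaving out libraries moved the Dkk2 log2 fold change from -0.11 to 0.28 in the MIDEAS family, from -0.19 to 0.13 in the DNTTIP1 family and from -0.072 to 0.12 for the mean. The difference between knockout effects ranged from -0.27 to 0.64 for Sfrp1, from -2.39 to 1.38 for Dkk1, from -0.081 to 0.31 for Dkk2 and from -0.12 to 0.30 for Dkk3. The wild-type difference ranged from -0.49 to 0.41 for Sfrp1, from -0.15 to 0.52 for Sfrp4, from -1.55 to 2.23 for Dkk1 and from -0.079 to 0.34 for Dkk3. For Dkk1, edgeR and DESeq2 gave a difference between the knockout effects of 0.61 and 0.64, and for Sfrp1 a wild-type difference of 0.032 and 0.015. The cause was not tested.

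Over all tested genes 917 were called in the MIDEAS family (1674 by DESeq2, 2025 with the block, 264 to 1014 with a library left out). In the DNTTIP1 family 5 were called (206 by DESeq2, 82 with the block, 17 with no filter, 0 in the fit of that family alone, 0 to 4 with a library left out). For the mean effect 1011 were called (1731 by DESeq2, 1923 with the block, 371 to 1444 with a library left out). Between the wild types 0 were called (267 by DESeq2, 240 without MIDEAS-/- replicate 1). DESeq2 called 12 genes for the difference between the effects.

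Dkk1 and Wif1 were not tested at a mean of at least 50. The block was not run between the wild types, and the fit per family gives no contrast that uses both families. Depth limits Sfrp5, Dkk1 and Wif1 most.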
